A study of Homo sapiens with 12 samples.

Results

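The 48 genes described here are interferon-stimulated genes (ISGs), followed in RNA sequencing of 2 granulosa cell tumor (GCT) lines treated with or without 77-39, an inhibitor of the mitochondrial deacetylase SIRT3. They were listed because 4 of them, IFI44L, OAS2, MX2 and TRIM22, had higher values after treatment in the libraries labelled COV434, and all 48 were found by symbol among the 58735 genes of the table. The treated against untreated comparison in those libraries therefore chose the genes, and it is given below as a description with no test. The response in the libraries labelled KGN was not used for the choice and was tested. The difference between the untreated lines was tested too, although its untreated libraries labelled COV434 are also one side of the comparison that chose the genes. The study had 12 libraries, 3 for each line and treatment. KGN and COV434 cells were both labelled wild type and grown in DMEM/F-12 with serum, the treated groups received 77-39 for 72 h, and the untreated groups are called controls in the labels. The dose reads 10 μm/ml, a unit that cannot be interpreted, and the same treatment text also stands on the control samples. No label says that the 3 libraries of a group came from separate cultures, so p-values measure the spread between these libraries, which may be technical.

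Interferons are secreted when a cell detects foreign or misplaced nucleic acid. Type I interferons bind the receptor formed by IFNAR1 and IFNAR2, the kinases JAK1 and TYK2 are activated, and STAT2 joins IRF9 in a complex that binds the interferon-stimulated response element (ISRE) in the promoters of ISGs. The proteins made from ISGs block viral entry, degrade or edit RNA, tag proteins with the ubiquitin-like ISG15, and raise the level of the sensors themselves. Epithelial and tumor cells carry this program without any immune cell, and some lines express part of it in culture without added interferon.

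FOXL2 and SMARCA2, which the lines are known for, went against the labels, so the libraries are called by their labels throughout. Whether the labels were exchanged was not tested. FOXL2, the granulosa cell transcription factor that carries the mutation typical of adult-type GCT and of KGN cells, had 2 reads over 6 libraries with the KGN label, but 11.5 to 14.0 FPKM in each with the COV434 label. SMARCA2, an ATPase whose loss together with that of SMARCA4 COV434 cells are known for, had 13 reads and 4.51 to 6.48 FPKM in the same sets. SMARCA4 was 2.25 to 2.60 FPKM under the KGN label and 6.51 to 12.6 FPKM under the COV434 label. WT1 was 45.9 to 61.4 FPKM and 0, respectively. The rest of a list of 10 granulosa cell markers was less clear. In untreated libraries labelled KGN and COV434, means were 4.55 and 8.24 FPKM for AMH and 1.06 and 4.75 for INHA. They were 0.0742 and 0.00485 for INHBA and 0.0937 and 0.106 for CYP19A1. FSHR had no read, and NR5A1, GATA4 and STAR had at most 4 reads in any group. Of 10 markers of immune cells, 2 were listed at 0 in all 12 libraries, none exceeded 0.750 FPKM, and their summed level was 0.501 to 1.21 FPKM under the KGN label and 0.00728 to 0.380 FPKM under the COV434 label. FPKM are fragments divided by the length of the gene and by a total set for each library. Recovered reads were 15547851 to 18280415 per library, where 3 reads on a gene of 1 kb correspond to 0.152 to 0.200 FPKM.

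The ISRE was searched for in the promoters of the genes. Of the 48 genes, 40 had a promoter entry in RefSeq (GRCh38.p14), covering 250 bases before to 50 bases after the annotated start. A core ISRE, 2 copies of GAAA with any 2 bases between them on either strand, was found in 27 of these 40 (67.5%), against 4.38% of 27305 genes with an entry. A gamma-activated site, TTCNNNGAA, which reads the same on both strands and can overlap the ISRE, was found in 12 of 40 (30%), against 9.38%. Stretches of 70 bases upstream of the start are shown for genes whose levels carry the comparisons below, with every core ISRE in capitals. IFI44L is one of the genes that chose the list, IFITM3, IFI6, BST2 and ISG15 had the highest levels in the untreated libraries labelled COV434, IFIT1 and OAS3 changed in the libraries labelled KGN, and UBE2L6 was the exception between the lines. 
IFI44L, chr1:78620345-78620414, plus strand, -103 to -34 from the start: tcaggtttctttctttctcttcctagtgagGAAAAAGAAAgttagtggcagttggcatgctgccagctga
IFIT1, chr10:89392490-89392559, plus strand, -133 to -64 from the start: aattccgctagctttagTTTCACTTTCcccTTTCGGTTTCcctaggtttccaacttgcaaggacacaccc
IFITM3, chr11:320861-320930, minus strand, -70 to -1 from the start: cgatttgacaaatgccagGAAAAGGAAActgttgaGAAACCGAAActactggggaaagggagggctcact
ISG15, chr1:1013360-1013429, plus strand, -137 to -68 from the start: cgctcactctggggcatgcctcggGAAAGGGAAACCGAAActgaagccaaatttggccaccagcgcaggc
IFI6, chr1:27672246-27672315, minus strand, -123 to -54 from the start: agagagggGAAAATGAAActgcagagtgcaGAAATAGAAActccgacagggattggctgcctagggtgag
BST2, chr19:17405715-17405784, minus strand, -154 to -85 from the start: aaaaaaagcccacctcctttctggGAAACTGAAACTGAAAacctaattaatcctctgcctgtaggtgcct
OAS3, chr12:112938404-112938473, plus strand, -70 to -1 from the start: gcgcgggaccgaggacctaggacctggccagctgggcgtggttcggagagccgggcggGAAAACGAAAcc
UBE2L6, chr11:57567936-57568005, minus strand, -70 to -1 from the start: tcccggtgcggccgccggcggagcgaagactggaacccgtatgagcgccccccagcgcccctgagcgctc
The stretches of ISG15 and BST2 each hold 2 core elements that overlap by a shared GAAA, and those of IFIT1, IFITM3 and IFI6 hold 2 that are apart. The window of UBE2L6 held no match. The element was about as frequent in the genes with a mean under 0.1 FPKM in the untreated libraries labelled KGN (10 of 15, 66.7%) as in the others (17 of 25, 68%). A match is a description of the letters, and nothing about binding was measured.

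Before any treatment the family was at a low level in the libraries labelled KGN and at a high level in those labelled COV434. In the untreated libraries labelled KGN, 21 of the 48 genes had a mean under 0.1 FPKM, 8 had no read in any of the 3 libraries, and none reached 100 FPKM. In the untreated libraries labelled COV434, 41 had a mean of at least 1 FPKM, 29 of at least 10 and 7 of at least 100. The summed level of the 48 genes was 193, 188 and 189 FPKM in untreated libraries 1, 2 and 3 labelled KGN, and 3386, 6056 and 5305 FPKM in those labelled COV434. As a share of recovered reads this was 0.0921% to 0.0948%, against 0.675% to 0.927%. All 3 libraries labelled COV434 lay far above all 3 labelled KGN. In bulk RNA, more cells expressing a gene and more RNA per cell cannot be told apart.

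**Figure D1:**
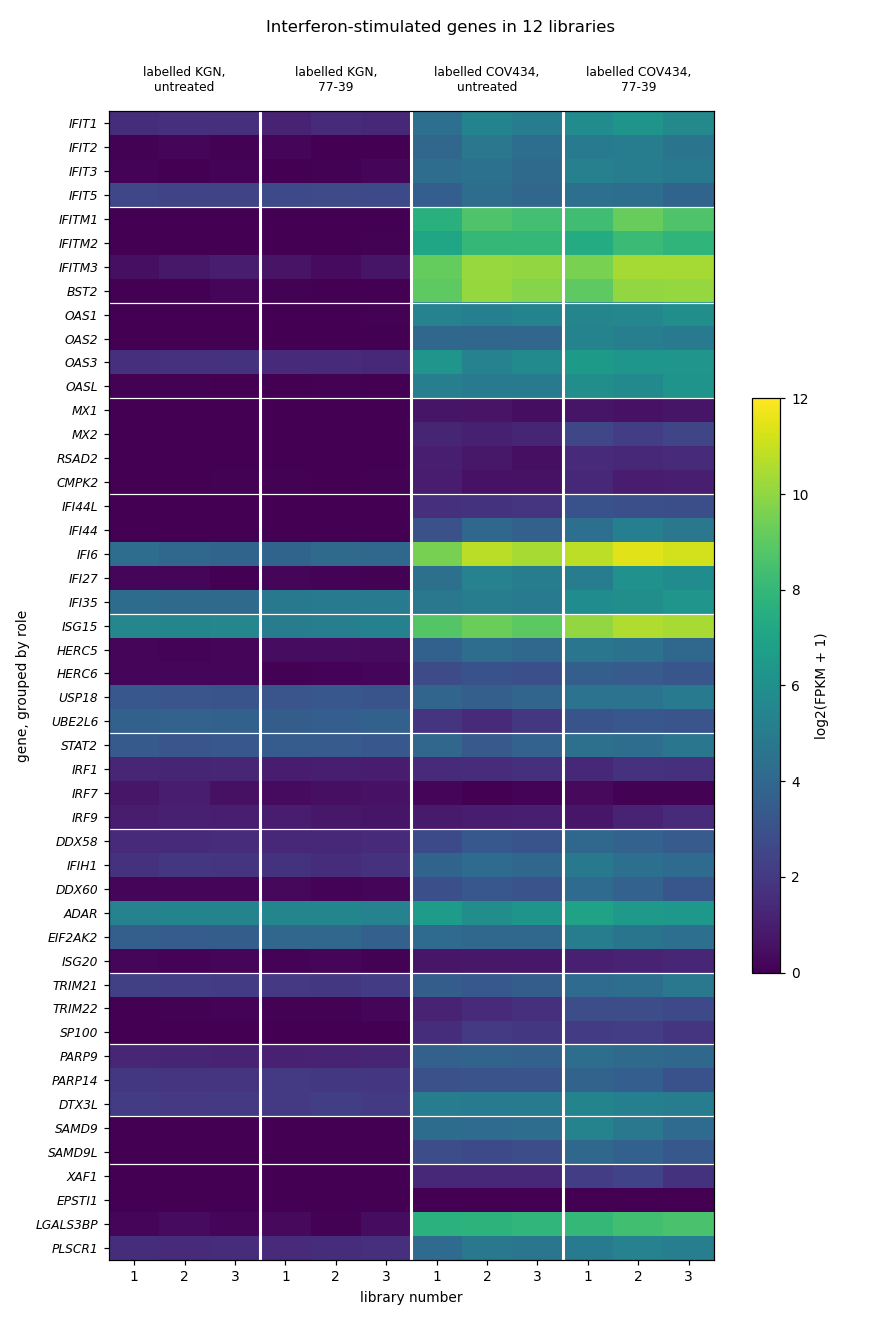
Level of each of the 48 genes (rows, grouped by role) in the 12 libraries (columns, by group and library number) as log2(FPKM + 1), from 0 in dark to 12 in bright color. The 6 libraries labelled KGN are dark for most genes, with IFI6, IFI35, ISG15, ADAR, EIF2AK2 and UBE2L6 as the 6 with an untreated mean of at least 10 FPKM, and EPSTI1 is at 0 in every library.

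Of the 48 genes, 43 were higher in every untreated library labelled COV434 than in every untreated library labelled KGN, 2 were lower in every one (UBE2L6 and IRF7), and 3 overlapped (STAT2, IRF9 and EPSTI1, which is listed at 0 throughout). Among all 32839 genes with a value above 0 in any untreated library, 21.2% were higher without overlap and 28.1% lower. By limma on log2(FPKM + 1), 38 of the 48 had a mean of at least 1 FPKM over these 6 libraries and could be tested, and 36 of them were higher and 1 lower at an adjusted p under 0.05, where 36.4% and 32.6% of 13098 genes were called in these directions. Because many of the 38 pass that filter only through the libraries labelled COV434, the 19 with a mean of at least 1 FPKM in both groups are given separately: 17 were higher, 1 (UBE2L6) was lower and 1 (STAT2) did not pass the threshold. The median log2 difference of these 19 was 1.45, beside 0.04 over the 10182 genes of the table with such a mean in both groups.

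**Figure D2:**
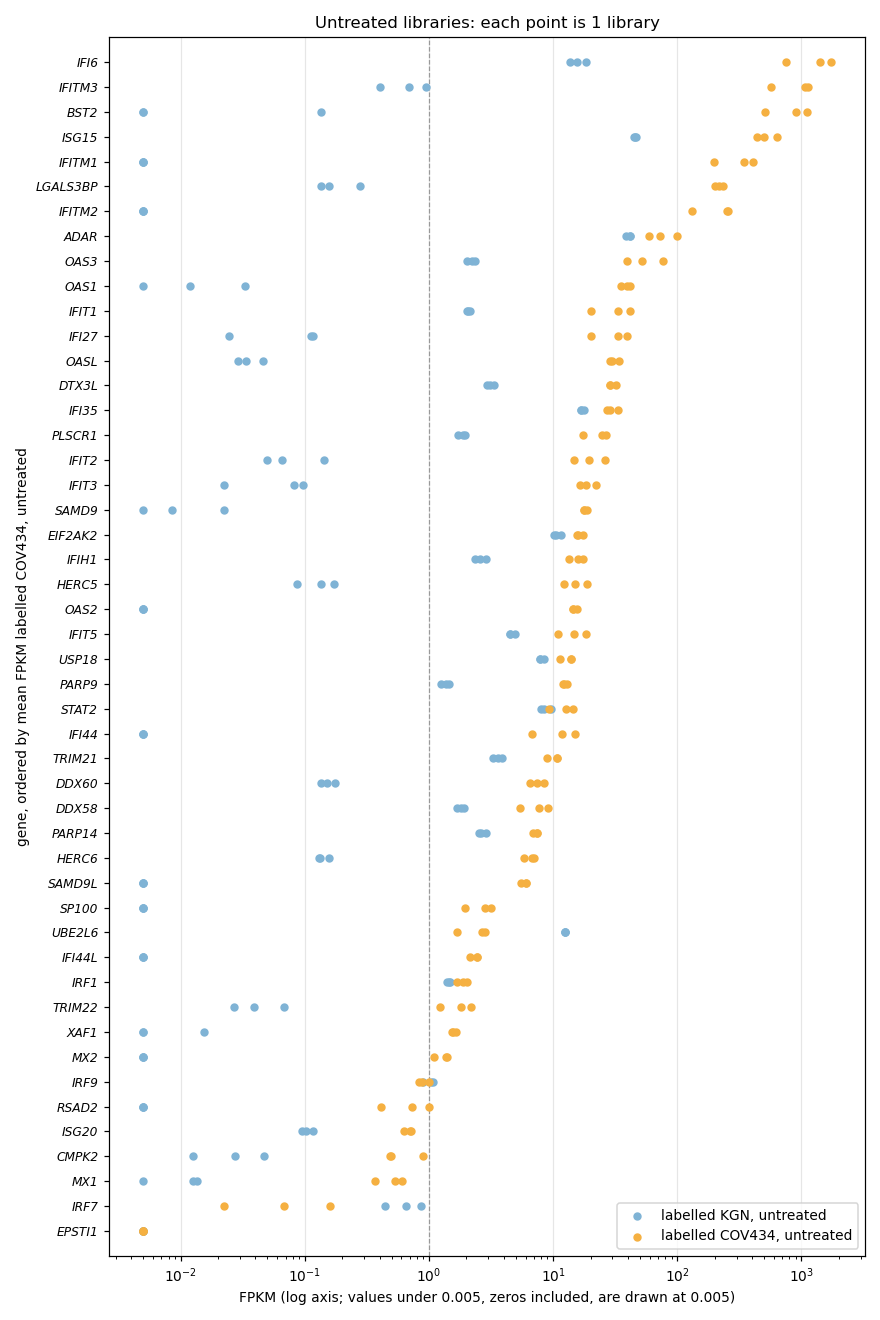
FPKM of each of the 48 genes in the 3 untreated libraries labelled KGN (blue) and the 3 labelled COV434 (orange) on a log axis, 1 point per library, with values under 0.005 drawn at 0.005 and the dashed line at 1 FPKM. Orange points lie right of blue points for 43 genes, left of them for UBE2L6 and IRF7, and mixed with them for STAT2, IRF9 and EPSTI1.

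The membrane-bound restriction factors had the largest log2 differences between the untreated lines. The IFITM proteins stop viruses from fusing with the cell, and BST2 (tetherin) holds budding virions at the surface. IFITM3 was 0.400, 0.695 and 0.942 FPKM in untreated libraries 1, 2 and 3 labelled KGN and 564, 1132 and 1070 FPKM in those labelled COV434, a log2 difference of 9.05 ± 0.28 (SE, n = 3 and 3). IFITM1 had no read in the 3 libraries labelled KGN and 197, 408 and 344 FPKM in those labelled COV434, which is at least 6316-fold higher when the 0 is replaced by the limit of 3 reads over the group. IFITM2 likewise had no read and then 132, 250 and 257 FPKM. BST2 was 0, 0 and 0.136 FPKM, from 3 reads in all, and 512, 1101 and 909 FPKM, a ratio of 17390 whose 95% counting interval runs from 5951 to 84340. The 3 IFITM coding sequences are 86.4% to 94.0% identical and IFITM1 overlaps IFITM2, so reads may have been shared among them.

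The enzymes OAS1, OAS2 and OAS3 of the OAS family sense double-stranded RNA and make the messenger that activates RNase L. OAS1 was 0.0327, 0.0118 and 0 FPKM in the untreated libraries labelled KGN and 39.0, 35.2 and 41.6 FPKM in those labelled COV434 (log2 difference 5.28 ± 0.09). OASL was 0.0289 to 0.0460 FPKM against 28.8 to 34.0 FPKM (4.94 ± 0.09). OAS2 had no read in the untreated libraries labelled KGN and was 15.4, 14.4 and 14.4 FPKM in those labelled COV434, at least 1703-fold higher. OAS3 differed from the other 3 in being above 1 FPKM in every untreated library of both lines, at 2.02, 2.24 and 2.37 FPKM against 76.7, 39.3 and 52.3 FPKM, a difference of 4.10 ± 0.23. The IFIT proteins, which bind foreign RNA ends, divided in the same way. IFIT2 and IFIT3 were at 0.0222 to 0.143 FPKM untreated under the KGN label and 14.8 to 26.3 FPKM under the COV434 label, whereas IFIT1 was 2.08 ± 0.08 against 31.6 ± 10.8 FPKM (mean ± SD, n = 3) and IFIT5 4.62 ± 0.25 against 14.6 ± 3.74 FPKM. All 4 were higher under the COV434 label. For IFIT1 and IFIT5, above 1 FPKM in both groups, the adjusted p values were 2.6e-05 and 3.59e-04 by limma. IFIT1, IFIT2 and IFIT3 overlap LIPA, which had up to 63.0 FPKM on the other strand, and the strand of counting was not stated.

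Members outside these families included LGALS3BP, IFI6 and the SAMD9 and PARP9 pairs. LGALS3BP, a secreted glycoprotein that binds galectins, was 0.135, 0.278 and 0.156 FPKM in the untreated libraries labelled KGN and 201, 215 and 235 FPKM in those labelled COV434 (log2 difference 7.52 ± 0.10). SAMD9, a restriction factor that halts translation, was 0, 0.00854 and 0.0222 FPKM against 17.7, 17.6 and 18.7 FPKM. Its neighbor SAMD9L had no read in the libraries labelled KGN and was 6.10, 5.56 and 6.09 FPKM in those labelled COV434. IFI6, a small membrane protein, had the highest level of all members in the untreated libraries labelled COV434, at 18.3, 15.4 and 13.8 FPKM against 750, 1722 and 1400 FPKM. PARP9 and DTX3L form a complex that modifies histones and viral proteins. DTX3L was 3.31, 2.95 and 3.10 FPKM against 31.9, 28.8 and 28.7 FPKM, and PARP9 was 1.45, 1.36 and 1.26 FPKM against 11.9, 13.0 and 12.2 FPKM. PARP9 and DTX3L overlap on opposite strands and the strand of counting was not stated, so their reads cannot be told apart where they overlap.

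The genes for ISG15 conjugation did not move together. ISG15 was 45.5, 44.6 and 46.5 FPKM in the untreated libraries labelled KGN and 439, 634 and 499 FPKM in those labelled COV434. HERC5, the ligase that attaches it, was 0.131 ± 0.043 against 15.3 ± 3.20 FPKM (mean ± SD, n = 3). UBE2L6, the conjugating enzyme that hands ISG15 to the ligase, went the other way, with 12.5, 12.5 and 12.4 FPKM against 2.66, 1.69 and 2.80 FPKM, a log2 difference of -2.01 ± 0.14 (adjusted p = 2.17e-05 by limma). USP18, which removes ISG15 and restrains the interferon receptor, was 8.03 ± 0.38 against 13.1 ± 1.54 FPKM (0.63 ± 0.11, adjusted p = 0.00165).

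The 4 transcription factors did not share a direction between the untreated lines. STAT2 was 9.56, 7.93 and 8.43 FPKM in the untreated libraries labelled KGN and 14.6, 9.23 and 12.7 FPKM in those labelled COV434, and the groups overlapped (log2 difference 0.43 ± 0.17, adjusted p = 0.0550 by limma). It passed the threshold without untreated library 2 labelled COV434 (0.00459), in a single fit of all 12 libraries (0.0287) and with the library number as a block (0.0316, all adjusted p by limma). IRF9 was 0.896, 1.08 and 1.03 FPKM against 0.827, 0.884 and 0.993 FPKM, also overlapping. IRF1 was 1.47, 1.39 and 1.45 FPKM against 1.69, 1.89 and 2.04 FPKM (0.24 ± 0.08, adjusted p = 0.0425), a call that was lost under 10 of the 14 alternative settings, with adjusted p values of 0.0626 to 0.262 there. IRF7, which amplifies interferon production, was 0.657, 0.869 and 0.445 FPKM against 0.161, 0.0224 and 0.0682 FPKM and was below the filter for testing.

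The antiviral RNA-binding proteins ADAR and EIF2AK2 were expressed in both lines. ADAR, which edits double-stranded RNA, was 40.7 ± 1.96 FPKM in the untreated libraries labelled KGN against 76.7 ± 20.2 FPKM in those labelled COV434 (mean ± SD, n = 3), a log2 difference of 0.87 ± 0.19 that did not pass the threshold after quantile normalization (0.42, adjusted p = 0.148 by limma). EIF2AK2, the kinase PKR that shuts down translation, was 10.7 ± 0.71 against 16.3 ± 1.02 FPKM. The sensors DDX58 (RIG-I) and IFIH1 (MDA5) were 1.80 ± 0.12 and 2.61 ± 0.27 FPKM against 7.38 ± 1.82 and 15.5 ± 1.89 FPKM. The GTPases MX1 and MX2, RSAD2 (viperin) and CMPK2 had at most 0.0472 FPKM in any untreated library labelled KGN and remained low in those labelled COV434, with means of 0.503, 1.29, 0.712 and 0.625 FPKM. A high level was not shared by every member, since 7 of the 48 had a mean under 1 FPKM in the untreated libraries labelled COV434.

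Genes upstream of the family were described from lists written by hand. Of 21 interferon ligands, 10 were listed at 0 in all 12 libraries, and none reached a mean of 1 FPKM in any group, so none was tested. IFNB1 was at 0 in the 6 libraries labelled KGN, and at 0, 0.0685 and 0.209 FPKM untreated and 0, 0 and 0.130 FPKM treated in those labelled COV434. IFNE, an interferon of the reproductive tract, was at 0 under the KGN label and at 0.114 to 0.454 FPKM in all 6 libraries labelled COV434. Of the 9 genes for receptors and JAK kinases, 6 were tested between the untreated lines, and 2 (JAK1 and IFNGR2) were higher and 1 (JAK2) lower in the libraries labelled COV434. The shares over all 13098 genes tested were 36.4% and 32.6%. JAK1 was 15.0 to 16.1 FPKM against 40.8 to 46.9 FPKM (log2 difference 1.43 ± 0.09, adjusted p = 1.29e-05 by limma), and JAK2 was 2.64 ± 0.19 against 1.19 ± 0.42 FPKM (-0.75 ± 0.15). The receptor subunits IFNAR1 and IFNAR2 were present in both lines, at 11.7 to 12.4 and 0.491 to 0.716 FPKM against 9.23 to 11.2 and 0.484 to 0.583 FPKM (IFNAR1 -0.24 ± 0.09, adjusted p = 0.0560). IFNLR1, the receptor chain for lambda interferons, was 0 to 0.0110 FPKM against 1.11 to 1.63 FPKM.

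Of 12 genes for nucleic acid sensing, 8 were tested between the untreated lines, of which 5 were higher in the libraries labelled COV434 and none lower. TMEM173 (STING) had no read in any library labelled KGN, was 10.9 to 13.8 FPKM in all 6 labelled COV434, and was at least 903-fold higher in the untreated ones. CGAS, the DNA sensor that activates it, was 0.0282 to 0.0519 FPKM untreated under the KGN label and 9.83 to 11.8 FPKM under the COV434 label (log2 difference 3.53 ± 0.09). MYD88 was 0.161 to 0.243 against 4.79 to 8.35 FPKM. TLR3 was at 0 under the KGN label and at 0.332 to 0.842 FPKM in all 6 libraries labelled COV434. MAVS, the adaptor of the RNA sensors, was 11.1 to 12.5 against 7.83 to 16.2 FPKM and overlapped (log2 difference -0.09 ± 0.23, adjusted p = 0.750 by limma). Of 8 negative regulators, 5 were tested, and 3 were higher and 1 lower (IRF2, which is also in the next list). SOCS3, an inhibitor of JAK kinases, was 0.0856 to 0.335 against 22.4 to 25.0 FPKM. Of 50 ISGs outside the 48, 34 were tested, and 23 were higher and 4 (DRAP1, TRIM5, IRF2 and GCH1) lower in the libraries labelled COV434. Over all 13098 genes tested, 36.4% were called higher and 32.6% lower. TMEM173, CGAS, MYD88, SOCS3, PARP10 and IFI16 were among those that passed the filter only through the libraries labelled COV434, so the counts of these lists are a description. Of the ISGs outside the 48, LY6E was 17.4 to 19.7 against 172 to 322 FPKM. PARP10 was 0.202 to 0.286 against 18.3 to 20.9 FPKM, and IFI16 0.0221 to 0.0509 against 7.15 to 10.5 FPKM.

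**Figure D3:**
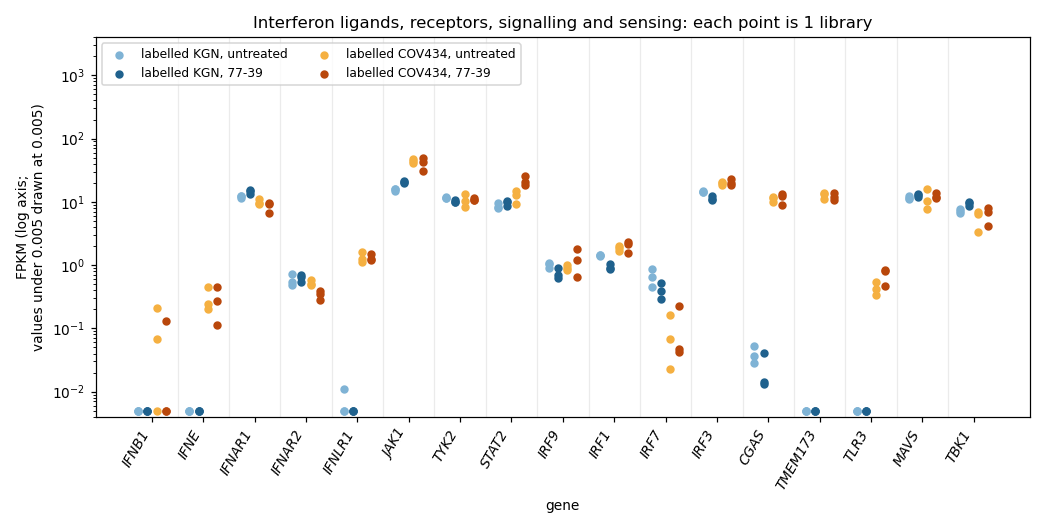
FPKM on a log axis of 17 genes for interferon ligands, receptors, signalling and nucleic acid sensing, 1 point per library, colored by group, with values under 0.005 drawn at 0.005. CGAS, TMEM173, TLR3 and IFNLR1 are at or near the bottom in the 6 libraries labelled KGN and higher in all 6 labelled COV434, while MAVS, TBK1, TYK2 and IRF9 are at similar heights, and IFNB1 is at 0 in 9 of the 12 libraries.

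In the libraries labelled KGN, the members that changed with 77-39 did so in both directions. Of the 48, 19 had a mean of at least 1 FPKM and were tested, and the other 29 could not be. At an adjusted p under 0.05, 3 were higher (IFI35, EIF2AK2 and IFIT5) and 4 lower (ISG15, IRF1, OAS3 and IFIT1) with 77-39, where 17.6% and 16.4% of 12671 genes were called higher and lower, so the counts of members were near the background. At an unadjusted p under 0.05, the threshold for DEGs in the study, 3 were higher and 6 lower, with TRIM21 and UBE2L6 added, against 23.7% and 21.6% of all genes. The log2 differences of the 19 ran from -0.39 to 0.75 with a median of -0.05, beside 0.01 over all genes. The summed level of the 48 genes was 188 to 193 FPKM untreated and 189 to 197 FPKM treated.

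IFI35, a small protein that binds other interferon-induced factors, was 17.6, 16.9 and 16.7 FPKM untreated and 28.2, 29.1 and 30.7 FPKM treated, a log2 difference of 0.75 ± 0.05 (adjusted p = 2.20e-04 by limma). Every treated library lay above every untreated one, and this was the call that held in every alternative setting tried. ISG15 fell from 45.5, 44.6 and 46.5 FPKM to 31.5, 34.4 and 38.0 FPKM (-0.39 ± 0.07, adjusted p = 0.00651, and 0.169 in a single fit of all 12 libraries). The 5 other calls were weaker. IFIT5 was 4.90, 4.46 and 4.48 FPKM untreated and 5.53, 5.68 and 5.53 FPKM treated (0.23 ± 0.05, adjusted p = 0.0145). EIF2AK2 was 11.5, 10.2 and 10.5 FPKM untreated and 14.4, 14.6 and 11.7 FPKM treated (0.31 ± 0.09, adjusted p = 0.0373).

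IFIT1 was 2.01, 2.06 and 2.16 FPKM untreated and 1.33, 1.70 and 1.57 FPKM treated in the libraries labelled KGN (log2 difference -0.28 ± 0.08, adjusted p = 0.0373 by limma). OAS3 was 2.02, 2.24 and 2.37 FPKM untreated and 1.78, 1.67 and 1.51 FPKM treated (-0.27 ± 0.08, adjusted p = 0.0372), and IRF1 was 1.47, 1.39 and 1.45 FPKM untreated and 0.883, 1.04 and 0.867 FPKM treated (-0.34 ± 0.09, adjusted p = 0.0272). These 3 low genes showed no overlap between treated and untreated libraries, but each call was lost when certain libraries were left out. Over all genes, 2230 were called higher and 2077 lower with every library, against 1380 and 1371 without treated library 2. Without untreated library 1 these counts were 2058 and 2070. Whether the losses are particular to these 3 genes was not tested. With a replicate block and every library kept, the calls were lost too (adjusted p = 0.0745, 0.0967 and 0.0780 by limma for IFIT1, OAS3 and IRF1). The IFIT1 call was lost without any 1 of the 6 libraries (adjusted p = 0.0516 to 0.114 by limma), while its log2 difference stayed at -0.33 to -0.22. The OAS3 call was lost without any of them but untreated library 1 (0.0578 to 0.121), and the IRF1 call without any but treated library 2 (0.0604 to 0.0843). Of the higher genes, IFIT5 and EIF2AK2 were both lost without untreated library 2, untreated library 3 or treated library 2, and EIF2AK2 also without treated library 1. ISG15 and IFI35 stayed called without each library, and UBE2L6 was called lower without treated library 3 (adjusted p = 0.0210).

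**Figure D4:**
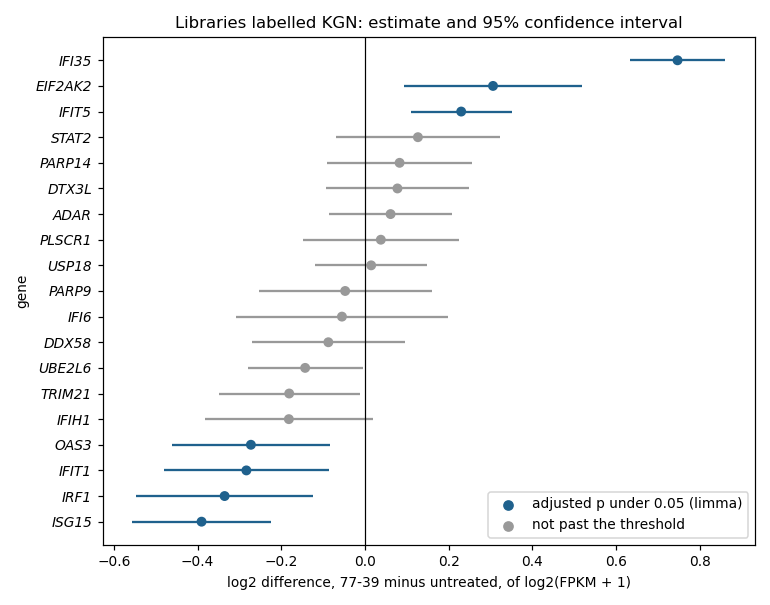
Log2 difference of log2(FPKM + 1), 77-39 minus untreated, for the 19 tested members, 3 treated against 3 untreated libraries labelled KGN, with 95% confidence intervals from limma. The 7 genes with an adjusted p under 0.05 are in blue, 3 above 0 and 4 below, and the intervals of 10 of the 12 gray genes cross 0.

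The remaining 29 genes were too low for a test in the libraries labelled KGN. IFI44L had 1 read in the 6 libraries, OAS2 had 1 and MX2 had 1, so a fall of these 3 genes could not have been seen at this depth, and no rise beyond 1 read was seen in the treated libraries. TRIM22 had 44 reads, at 0.0269, 0.0389 and 0.0675 FPKM untreated and 0.0641, 0.0471 and 0.169 FPKM treated. In all, 10 members had at most 3 reads in the 6 libraries together. HERC5 was the only member below the filter with no overlap and a higher level, 0.0860 to 0.171 FPKM untreated and 0.289 to 0.322 FPKM treated.

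Upstream of the family, 4 of the 6 tested genes for receptors and JAK kinases rose with 77-39 in the libraries labelled KGN and 2 fell. Over all 12671 genes tested, 17.6% were called higher and 16.4% lower, and these lists are short. IFNGR1, a subunit of the type II interferon receptor, was 6.31 ± 0.30 FPKM untreated and 10.2 ± 0.51 FPKM treated (log2 difference 0.62 ± 0.05, adjusted p = 5.81e-04 by limma). JAK1, JAK2 and IFNAR1 rose by 0.37, 0.44 and 0.26 on the log2 scale, and IFNGR2 and TYK2 fell by 0.29 and 0.17. Of the 5 tested sensing genes, TBK1 and TRIM25 were higher and IRF3 lower. Of 23 tested ISGs outside the 48, 5 were higher and 5 lower, counts near the background. The 5 higher were WARS, LAMP3, GCH1, ELF1 and PNPT1, and WARS, the tryptophanyl-tRNA synthetase, was 21.4, 22.4 and 21.4 FPKM untreated and 43.2, 41.8 and 43.6 FPKM treated (0.95 ± 0.04, adjusted p = 9.1e-05). The 5 lower were NLRC5, OGFR, MOV10, TRIM14 and CNP.

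In the libraries labelled COV434, where the comparison chose the genes, 43 of the 48 had a mean of at least 1 FPKM, and the log2 difference of each of these 43 was above 0, from 0.06 for IRF1 to 1.44 for UBE2L6. The median was 0.59, beside -0.02 over all 12060 genes at that level. In 27 of the 43, every treated library lay above every untreated one, and in 0 below, where 6.23% and 8.16% of all genes did so. These counts are read as values of the genes that were picked, not as support for a response. No label says that same-numbered libraries were paired. Treated and untreated libraries of the same number deviated from their group means together over all genes (Pearson's r = 0.40, 0.47 and 0.17). Untreated library 3, however, had an r of 0.15 with treated library 2, near its 0.17 with treated library 3. Pairs by number are therefore a description. Within same-numbered pairs, 35 of the 43 were higher in all 3 and 0 were lower in all 3, against 17.9% and 18.9% of all genes. The summed level of the 48 genes was 3386, 6056 and 5305 FPKM untreated and 5834, 8931 and 8046 FPKM treated, and each treated library was above the untreated one of the same number.

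Of the 4 genes that chose the list, IFI44L was at 2.16, 2.42 and 2.44 FPKM untreated and 7.12, 6.55 and 6.44 FPKM treated. OAS2 was at 15.4, 14.4 and 14.4 FPKM untreated and 39.8, 34.0 and 29.6 FPKM treated. MX2, a GTPase that blocks the nuclear entry of viral genomes, was at 1.39, 1.11 and 1.37 FPKM untreated and 4.78, 3.47 and 4.62 FPKM treated. TRIM22, an antiviral ubiquitin ligase, was at 1.23, 1.81 and 2.17 FPKM untreated and 6.14, 6.13 and 5.18 FPKM treated. Their ratios of means were 2.87, 2.34, 3.33 and 3.35, and treated and untreated libraries did not overlap. IFI44L (ENSG00000137959) lies on chromosome 1 from 78619922 to 78646145, OAS2 (ENSG00000111335) on chromosome 12 from 112978395 to 113011723, MX2 (ENSG00000183486) on chromosome 21 from 41361943 to 41409390, and TRIM22 (ENSG00000132274) on chromosome 11 from 5689689 to 5737089, in the coordinates of the table, which match GENCODE release 29 on GRCh38. TRIM22 overlaps TRIM5, which had up to 7.18 FPKM on the other strand.

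**Figure D5:**
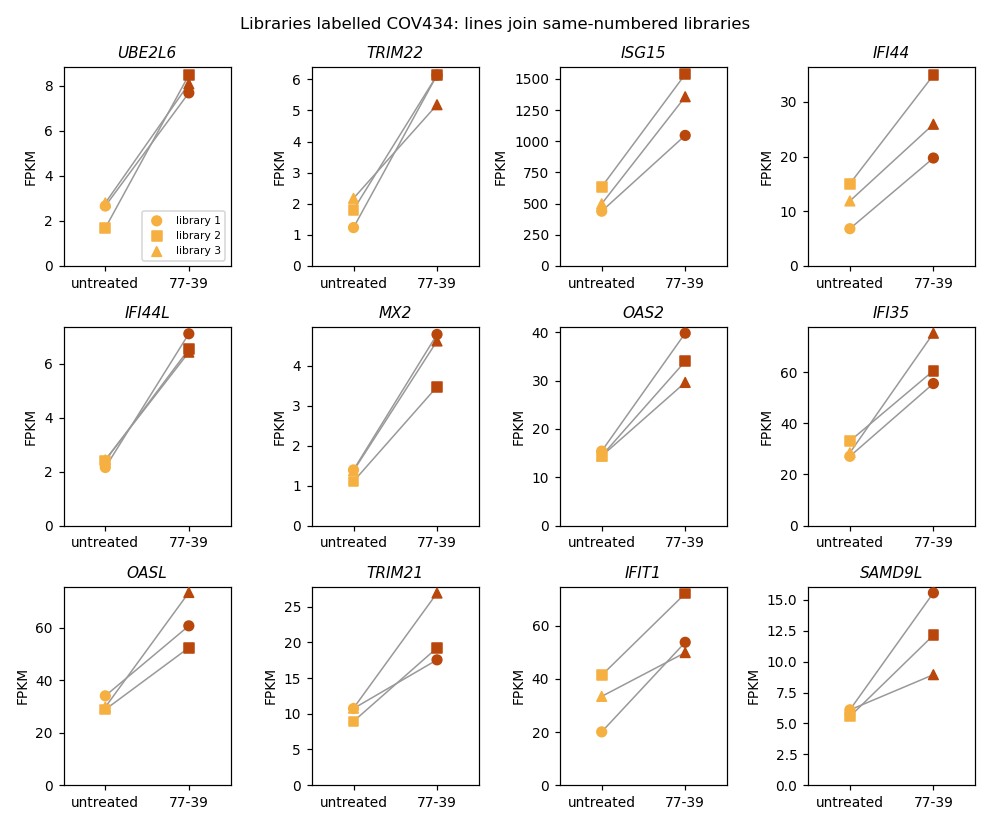
FPKM in the 3 untreated and 3 treated libraries labelled COV434 for the 12 genes with the largest log2 difference, on axes that start at 0, with lines joining libraries of the same number. Every line goes up, and in each of the 12 panels the lowest treated library is above the highest untreated one.

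Beside MX2, OAS2, TRIM22 and IFI44L, the largest log2 differences were in UBE2L6, ISG15, IFI44 and IFI35. UBE2L6 was 2.66, 1.69 and 2.80 FPKM untreated and 7.69, 8.48 and 8.09 FPKM treated, 3.39-fold, which left it below the 12.5 ± 0.04 FPKM (mean ± SD, n = 3) of the untreated libraries labelled KGN. ISG15 was 439, 634 and 499 FPKM and then 1047, 1537 and 1357 FPKM, and IFI44 was 6.81, 15.0 and 11.9 FPKM and then 19.7, 34.9 and 25.9 FPKM. IFI35 was 27.1, 33.0 and 28.5 FPKM untreated and 55.5, 60.5 and 75.2 FPKM treated. Beside this 2.16-fold, its ratio in the libraries labelled KGN was 1.72, and IFI35 was the member with the highest log2 difference there. TRIM21, which targets antibody-bound virus for degradation, was 10.7, 8.94 and 10.8 FPKM and then 17.6, 19.2 and 26.9 FPKM. OASL, IFIT1 and SAMD9L were 2.01-fold, 1.85-fold and 2.07-fold higher.

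The abundant membrane factors had some of the smallest differences. BST2 was 512, 1101 and 909 FPKM untreated and 517, 1070 and 1113 FPKM treated, IFITM2 was 132, 250 and 257 FPKM and then 165, 289 and 234 FPKM, and IFITM3 was 564, 1132 and 1070 FPKM and then 775, 1355 and 1345 FPKM. In all 4 genes of this group, IFITM1 included, treated and untreated libraries overlapped. Within same-numbered pairs 1, 2 and 3, however, the log2 difference was 0.68, 0.54 and 0.28 for IFITM1 and 0.46, 0.26 and 0.33 for IFITM3, above 0 in each, while that of BST2 was 0.01, -0.04 and 0.29 and that of IFITM2 0.32, 0.21 and -0.14. Without regard to the pairs, the log2 differences were 0.09 ± 0.38, 0.13 ± 0.31, 0.35 ± 0.34 and 0.50 ± 0.33 (SE) for BST2, IFITM2, IFITM3 and IFITM1. Of the transcription factors, STAT2 was 14.6, 9.23 and 12.7 FPKM untreated and 20.5, 18.7 and 25.3 FPKM treated, without overlap. The other 3 overlapped. IRF9 was 0.827, 0.884 and 0.993 FPKM untreated and 0.651, 1.19 and 1.81 FPKM treated. IRF1 was 1.69, 1.89 and 2.04 FPKM and then 1.56, 2.28 and 2.19 FPKM. IRF7 was 0.161, 0.0224 and 0.0682 FPKM and then 0.229, 0.0464 and 0.0426 FPKM, the level of a few reads.

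Outside the 48, of the 7 receptor and JAK kinase genes that reached a mean of 1 FPKM in the libraries labelled COV434, 0 were higher with 77-39 without overlap and 0 were lower. Of 9 such sensing genes, 2 (MYD88 and TRIM25) were higher without overlap, while TMEM173 at up to 13.8 FPKM in both groups and CGAS at 9.83 to 11.8 and then 8.99 to 13.1 FPKM overlapped. Of 5 negative regulators 1, SOCS3, was lower without overlap, at 22.4 to 25.0 and then 12.6 to 17.2 FPKM. Of 35 further ISGs, 13 were higher without overlap and 0 lower. Over all 12060 genes, 6.23% were higher and 8.16% lower without overlap. The counts of these lists are a description too, since the lists were written with earlier results known. The chemokines CXCL10 and CXCL11 were at 0 in the 6 libraries labelled KGN and, below a mean of 1 FPKM, at 0.0513 to 0.300 and 0.0925 to 0.348 FPKM untreated and 0.571 to 1.40 and 0.410 to 1.34 FPKM treated in those labelled COV434.

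Library 1 labelled COV434 stood apart from libraries 2 and 3. Of the 43 genes, 14 were below the mean of the other 2 libraries in both library 1 untreated and library 1 treated, and 9 were above in both. The median gene length was 2005 bases in the first set and 7135 bases in the second. Over the 43 genes, the deviation of library 1 and gene length had a Spearman's rho of 0.474 untreated and 0.685 treated, and over all genes 0.294 and 0.446; the genes share their libraries and no p is given. Mitochondrially encoded genes took 13.5% of recovered reads in treated library 1 and 7.71% to 9.63% in the other 5. The part of gene length and RNA quality in the differences was not tested. Without both libraries numbered 1, 35 of 44 genes were higher without overlap and 0 lower, where 22.6% and 25.6% of all genes were, and the median log2 difference was 0.48. In the comparison between the untreated lines, 35 members were called higher without untreated library 1 labelled COV434.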

How the data were processed

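RNA sequencing of 12 libraries was analysed, 3 per label and treatment. The deposited FPKM were made by the authors from fragments per gene, scaled by gene length and by library. The submitters' processing notes name HISAT2 2.0.5 and mouse builds, and the extract protocol speaks of retinas, whereas all 58735 genes matched GENCODE release 29 on GRCh38. Reads recovered from FPKM and gene length were whole numbers (within 0.05) for 100% of values. They summed to 15547851 to 18280415 per library, but the totals by which the authors' FPKM were divided were 16719040 to 19681248 under the KGN label and 14971926 to 17882683 under the COV434 label, so FPKM were scaled beyond depth. Intervals and limits on reads cover counting error only.

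Genes reaching a mean of 1 FPKM were tested with limma 3.58.1 (R 4.3.3; lmFit, eBayes with trend) on log2(FPKM + 1), which understates changes of low genes. Each two-sided test used only the 6 libraries compared, and p-values were adjusted by Benjamini-Hochberg over the table. limma was tested on simulated data with the same small spread for every gene, which does not cover the wider spread of the libraries labelled COV434. Ratios are of mean FPKM, and against 0 reads of a limit of 3 reads over the group. The 48 genes, the lists and the naming rule were chosen with earlier results of these data known. A gene of the upstream lists is not reported here. Values per library are given for the 4 genes of the rule, up to 12 genes with the smallest p or largest difference in each comparison, and the transcription factors. Python 3.11.15 was used for the rest.

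Same-numbered libraries had r of -0.02, -0.02 and -0.02 in the libraries labelled KGN and -0.14, -0.13 and -0.08 between the untreated lines. Only those labelled COV434 deviated together by number, and no label states a pairing. The settings varied were the pseudocount (0.1), the filter (0.1 FPKM or none), the scaling (median-ratio or quantile), the samples fitted (all 12, or each library left out) and a replicate block. Voom of limma on recovered reads, and leaving out both libraries numbered 1, were chosen after seeing the data.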

Additional observations from a re-analysis of the deposited data

How the results depend on the processing

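In the libraries labelled KGN the number of genes called depended on the setting. The number higher with 77-39 was 3, and 1 in a single fit of all 12 libraries. The number lower was 4, and 2 with a filter at 0.1 FPKM, 1 with no filter, 0 in a single fit of all 12 libraries and 1 with a replicate block. Each library left out in turn gave 1 to 3 higher and 1 to 2 lower. Between the untreated lines the number lower was 1, and 2 with a filter at 0.1 FPKM or none, where IRF7 entered the test, and leaving out a library gave 34 to 36 higher and 1 lower. In the libraries labelled COV434, leaving out a library gave 27 to 35 genes higher without overlap and 0 lower, and the replicate block (1 sign in every same-numbered pair) gave 35 and 0. Other settings kept these counts within 1.5 times. The fit of all 12 libraries lets the wider spread of the libraries labelled COV434 enter the KGN test. The block changed no other count of members by more than 1.5 times.

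Signs turned for 3 genes near 0 in the libraries labelled KGN, none of them called. IFI6 (-0.06) ranged from -0.15 to 0.048 over the libraries left out, above 0 without untreated library 1 or treated library 1. USP18 (0.01) was 0.00 after quantile normalization and ranged from -0.024 to 0.049, below 0 without untreated library 2 or 3 or treated library 2. PLSCR1 (0.04) ranged from -0.0021, without treated library 3, to 0.083. The median log2 difference of all genes between the untreated lines was 0.02, -0.09 after quantile normalization and -0.18 by voom, so differences between lines are relative to these shifts. The cause was not tested. In the libraries labelled COV434, MX2, RSAD2, IFI44L, UBE2L6, TRIM22 and XAF1 had larger log2 differences with a pseudocount of 0.1 (1.03 to 1.75) and by voom (1.08 to 1.80). Depth limits the genes under a few reads, which include IFI44L, OAS2 and MX2 in the libraries labelled KGN.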
